A study of Mus musculus with 6 samples.

Results

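*Txnip* and its 5 paralogues *Arrdc1*, *Arrdc2*, *Arrdc3*, *Arrdc4* and *Arrdc5* make up the alpha-arrestin genes of the mouse, and they were taken by gene symbol from the counts of liver sinusoidal endothelial cells (LSECs). All 6 symbols were found, each in 1 of 23282 rows. LSECs form the fenestrated wall of the hepatic sinusoids. They came from mice labelled TXNIP-/- (3 libraries) and from mice labelled WT (3 libraries), and RNA was sequenced from the 3′ end of transcripts by QuantSeq. The TXNIP-/- mice lack *Txnip* in the whole body on a C57BL/6J background, C57BL/6J mice served as controls, and LSECs were enriched with anti-CD146 magnetic beads. No treatment, diet, age, sex or number of mice per library is given for these 6 samples in the sources used here, nor is the time of any culture before RNA isolation.

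Alpha-arrestins share the folded core of the visual and beta-arrestins. They act as adaptors that bring membrane proteins to ubiquitin ligases of the NEDD4 family, which mark these proteins for uptake into endosomes. TXNIP is also a partner of thioredoxin, whose reducing power it holds in check, and it promotes the removal of the glucose transporter GLUT1 from the cell surface. *Txnip* and *Arrdc4* are both known targets of the glucose-sensing transcription factor MondoA. The comparison of the genotypes asks how much *Txnip* RNA remained and whether RNA of the paralogues was higher where *Txnip* was lost.

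Totals of the 6 libraries ran from 9147764 to 10193952 counts, and 11583 rows passed the filter on low counts. The share of the ribosomal RNA precursor *Rn45s* was 9.68% to 10.03% in WT replicates 1 and 2 and 16.8% to 18.6% in the other 4 libraries, so these WT libraries stood apart. By a chi-square of the counts per degree of freedom, WT replicates 1 and 2 were the closest of all pairs (3.93), while WT replicate 3 differed more from them (37.0 and 40.2) than from each TXNIP-/- library (13.3 to 17.1). These counts include *Rn45s*, so the chi-square is not a measure separate from its share. The part of *Rn45s* in these values was not tested. The members and the partner genes named by rule were also fitted with a term for WT replicates 1 and 2. The endothelial genes *Pecam1* and *Cdh5* had mean levels of 885 and 1069 normalised counts (CPM, scaled to library size with TMM factors) in TXNIP-/- libraries and 934 and 1101 CPM in WT libraries. The summed level of 11 LSEC markers was 4525 to 4932 CPM against 5207 to 6973 CPM. All 11 were tested and all were lower in TXNIP-/- libraries, with a median log2 fold change of -0.36. An unadjusted p under 0.05 in edgeR was reached by 7 of them, beside 11.5% of all tested genes. Of the 11, *Stab1* and *Stab2* were called lower, where 0.976% of all tested genes were called lower. *Lyve1* alone sets much of the LSEC sum, with 3482, 3780 and 1520 CPM in WT replicates 1, 2 and 3. It had 1475 to 1976 CPM in TXNIP-/- libraries, so that the genotypes overlapped for this gene. Among markers of other liver cells, those of Kupffer cells and stellate cells moved with the genotype. The 7 Kupffer cell markers summed to 187 to 206 CPM in TXNIP-/- and 446 to 474 CPM in WT libraries. The 6 tested were all lower in TXNIP-/- libraries, and 5 of them were called, where 0.976% of all tested genes were called lower. The 6 stellate cell markers summed to 36.3 to 45.2 CPM against 19.8 to 23.9 CPM. The 5 tested were all higher, and 1 of them, *Dcn*, was called, where 0.57% of all tested genes were called higher. The 6 hepatocyte markers summed to 36.2 to 52.7 CPM against 35.1 to 39.0 CPM and the 4 cholangiocyte markers to 2.46 to 5.10 CPM against 1.36 to 4.65 CPM, with 0 called in either list. Neutrophil and lymphocyte markers summed to at most 1.53 CPM in any library, with *Retnlg*, *Cd3e*, *Ms4a1* and *Nkg7* at 0 throughout. In RNA of bulk cells, fewer cells of a type and less RNA per cell cannot be told apart, and the part of these other cells in the changes of the alpha-arrestin genes was not tested.

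**Figure D1:**
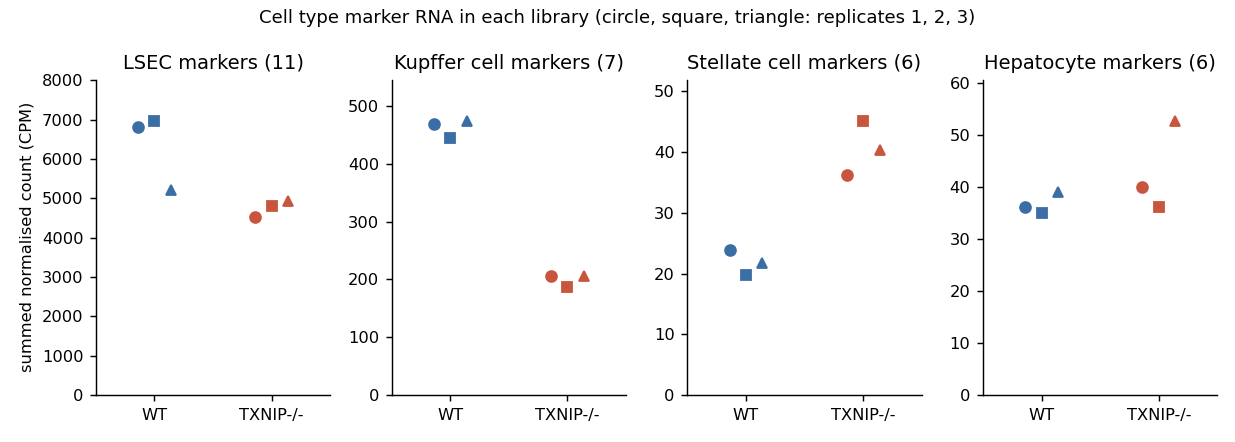
Summed level (CPM, vertical axis) of the LSEC, Kupffer cell, stellate cell and hepatocyte markers in each library of WT and TXNIP-/- LSECs (horizontal axis), with 1 symbol per replicate. The Kupffer cell sums of the TXNIP-/- libraries (187 to 206 CPM) lie below all WT libraries (446 to 474 CPM), and the stellate cell sums (36.3 to 45.2 CPM) lie above them (19.8 to 23.9 CPM).

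*Txnip* (ENSMUSG00000038393) has 8 exons at chr3:96557957-96561883 (plus strand, GRCm38). Its level was 30.04, 22.0 and 20.4 CPM in TXNIP-/- replicates 1, 2 and 3 and 185, 192 and 211 CPM in WT replicates 1, 2 and 3. All TXNIP-/- libraries lay far below all WT libraries, so the labels matched the targeted gene. *Txnip* fell by 3.02 on the log2 scale with a standard error of 0.14 (adjusted p = 6.94e-10, edgeR's quasi-likelihood test with Benjamini-Hochberg adjustment), the smallest p of all tested genes, and its log2 fold change was -3.13 with WT replicates 1 and 2 given their own term. The RNA that remained was 12.3% of the WT level (95% interval 10.1% to 15.0%), and it was 191 to 269 counts per library, well above the floor of 3 counts. The exons that the knockout removes are not given in the sources used here. QuantSeq reads come mainly from the last exon, so the remaining counts cannot tell an intact from a shortened transcript.

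No exon of another gene overlaps the last 500 bases of any of the 6 genes in GENCODE M21. The antisense gene *Gm15441* overlaps the first exon of *Txnip* and another exon within it, and shares 508 of the 2746 windows of 50 bases in the *Txnip* transcript. It was chosen after its values were seen. *Gm15441* had 0, 0 and 1 counts in TXNIP-/- replicates 1, 2 and 3 and 17, 10 and 0 counts in WT replicates 1, 2 and 3. It was below the filter, the genotypes overlapped, and its counts were small beside the 1901 to 2019 counts of *Txnip* in the WT libraries. Windows were taken from the principal annotated transcript of each member. No window of 50 bases was shared with another alpha-arrestin gene or, for the *Arrdc* genes, with an annotated transcript of any other gene. Reads from these *Arrdc* transcripts therefore had no perfect match of that length in a transcript of another gene. Other transcripts of the *Arrdc* genes were not searched.

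The genes next to *Txnip* were not called. The nearest tested genes were *Polr3gl*, a subunit of RNA polymerase III, 15989 bases after it (log2 fold change -0.70, unadjusted p = 0.00935, adjusted p = 0.218, edgeR), and the histone gene *Hist2h2aa1*, 311875 bases before it (log2 fold change 0.09, adjusted p = 0.905, edgeR). *Polr3gl* was lower in every TXNIP-/- library than in any WT library, as were 8.94% of all tested genes. *Hist2h2aa1* belongs to a family of near-identical copies, so its counts are uncertain. Of 21 tested genes within 500000 bases on either side, 0 passed an adjusted p of 0.05 in edgeR, DESeq2 or limma, and 3 had an unadjusted p under 0.05 in edgeR, beside 11.5% of all tested genes. Their median log2 fold change was -0.13.

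*Arrdc4* rose in TXNIP-/- LSECs. *Arrdc4* (ENSMUSG00000042659, chromosome 7, 68736995 to 68749241, minus strand, 8 exons) encodes the alpha-arrestin that, like TXNIP, is known to act on glucose uptake. Its level was 71.0, 69.9 and 76.5 CPM in TXNIP-/- replicates 1, 2 and 3 and 47.5, 42.0 and 31.9 CPM in WT replicates 1, 2 and 3. Every TXNIP-/- library was above every WT library, and WT replicate 3 was the lowest. *Arrdc4* rose from 40.5 ± 7.89 to 72.5 ± 3.55 CPM (SD, n = 3 libraries per genotype), which was 1.79-fold (95% interval 1.45 to 2.20), with a log2 fold change of 0.84, a standard error of 0.14 and an adjusted p of 0.00342 in edgeR. It was the only 1 of the 4 tested paralogues called in either direction, where 1.55% of all tested genes were called (0.57% higher and 0.976% lower). Of the 179 genes called, 66 were higher and 113 lower, against 36 and 150 with library totals as the only scaling and 98 and 102 once the term for these WT libraries was added. The call held with each library left out in turn, with log2 fold changes from 0.70 without WT replicate 3 to 0.97 without WT replicate 1. With that term the log2 fold change was 1.18 (adjusted p = 0.000717, edgeR), a comparison in which WT replicate 3 alone stands for WT.

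*Arrdc3* (ENSMUSG00000074794, chromosome 13, 80883384 to 80896042, plus strand, 8 exons) was lower by a smaller amount that did not pass the test. ARRDC3 is known as an adaptor in the trafficking of beta-adrenergic receptors. Its level was 28.2, 36.4 and 33.5 CPM in TXNIP-/- replicates 1, 2 and 3 and 42.4, 38.0 and 46.4 CPM in WT replicates 1, 2 and 3. The genotypes did not overlap, but TXNIP-/- replicate 2 and WT replicate 2 came close to each other. The means were 32.7 ± 4.12 and 42.3 ± 4.21 CPM, a log2 fold change of -0.37 with a standard error of 0.15 (unadjusted p = 0.0251, adjusted p = 0.330 in edgeR), or 0.774-fold (95% interval 0.621 to 0.965). With the term for WT replicates 1 and 2 it was -0.50 (adjusted p = 0.235, edgeR). With *Arrdc4*, 2 of the 4 tested paralogues had no overlap between genotypes, beside 17.4% of all tested genes (8.43% with TXNIP-/- above and 8.94% with TXNIP-/- below).

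*Arrdc1* and *Arrdc2* did not differ beyond the spread between libraries. *Arrdc1* (ENSMUSG00000026972, chromosome 2, 24925352 to 24935252, minus strand, 8 exons) encodes the adaptor known for budding vesicles directly from the plasma membrane. Its level was 19.0, 9.89 and 17.3 CPM in TXNIP-/- replicates 1, 2 and 3 and 12.5, 19.6 and 16.5 CPM in WT replicates 1, 2 and 3. The genotypes overlapped (log2 fold change -0.08 with a standard error of 0.26, adjusted p = 0.948, edgeR), and the 95% interval of the fold change ran from 0.652 to 1.38, so a change of the size seen for *Arrdc4* lay outside it. Its direction turned without TXNIP-/- replicate 2 (0.16) or WT replicate 2 (0.09). *Arrdc2* (ENSMUSG00000002910, chromosome 8, 70835129 to 70839720, minus strand, 8 exons) had only 39, 21 and 11 counts in TXNIP-/- replicates 1, 2 and 3 and 47, 46 and 20 counts in WT replicates 1, 2 and 3. Its level was 2.56 ± 1.63 CPM in TXNIP-/- and 3.69 ± 1.37 CPM in WT libraries, a log2 fold change of -0.53 with a standard error of 0.57 (adjusted p = 0.811, edgeR). The 95% interval ran from 0.299-fold to 1.596-fold, so a difference was not detectable at this depth, and the direction turned with the term for WT replicates 1 and 2 (0.27). *Arrdc5* (ENSMUSG00000073380, chromosome 17, 56294111 to 56300286, minus strand, 3 exons), best known from testis, had 0 counts in all 6 libraries, which allows up to 3 counts, or 0.294 to 0.328 CPM, in each of them.

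**Figure D2:**
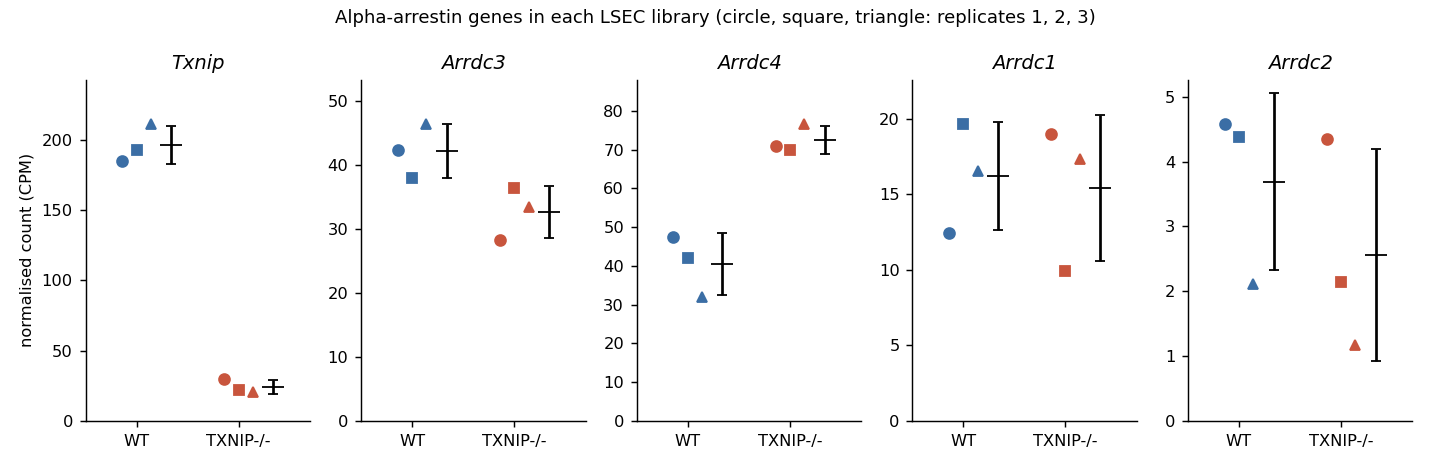
Level (CPM, vertical axes from 0) of the 5 detected alpha-arrestin genes in each library of WT and TXNIP-/- LSECs (horizontal axes), with 1 symbol per replicate and the mean ± SD in black. *Txnip* (24.2 against 196 CPM) and *Arrdc3* (32.7 against 42.3 CPM) lie lower in TXNIP-/- libraries and *Arrdc4* (72.5 against 40.5 CPM) lies higher, without overlap, while *Arrdc1* and *Arrdc2* overlap.

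Because a QuantSeq count stands for a transcript end and does not grow with transcript length, CPM levels of these genes were set side by side without division by length. In WT LSECs *Txnip* was the most abundant with 196 ± 13.3 CPM, followed by *Arrdc3* with 42.3 ± 4.21 CPM and *Arrdc4* with 40.5 ± 7.89 CPM, whose libraries overlapped, then by *Arrdc1* with 16.2 ± 3.59 CPM and *Arrdc2* with 3.69 ± 1.37 CPM. In TXNIP-/- LSECs the order was *Arrdc4* (72.5 ± 3.55 CPM), *Arrdc3* (32.7 ± 4.12 CPM), *Txnip* (24.2 ± 5.15 CPM), *Arrdc1* (15.4 ± 4.84 CPM) and *Arrdc2* (2.56 ± 1.63 CPM). Here *Arrdc3* and *Txnip* overlapped, while *Arrdc4* lay above all other members in every library.

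*Arrdc4* thus took the first place among the members that *Txnip* held in WT LSECs, but at a lower level. *Txnip* made up 63.4% to 68.5% of the summed CPM of the family in WT libraries and 13.7% to 19.7% in TXNIP-/- libraries. *Arrdc4* made up 10.4% to 16.3% in WT and 46.5% to 51.4% in TXNIP-/- libraries. The loss of *Txnip* from the sum by itself raises this share, and the level of *Arrdc4* was 1.79-fold that of WT. In CPM, the mean level of *Txnip* fell by 172, that of *Arrdc4* was higher by 32.0 and that of *Arrdc3* was lower, with a difference of -9.59. The 5 *Arrdc* genes together had 123 ± 5.10 CPM in TXNIP-/- and 103 ± 5.13 CPM in WT libraries, a difference of 20.5 CPM. The whole family had 147 ± 6.29 CPM in TXNIP-/- against 299 ± 8.21 CPM in WT libraries.

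**Figure D3:**
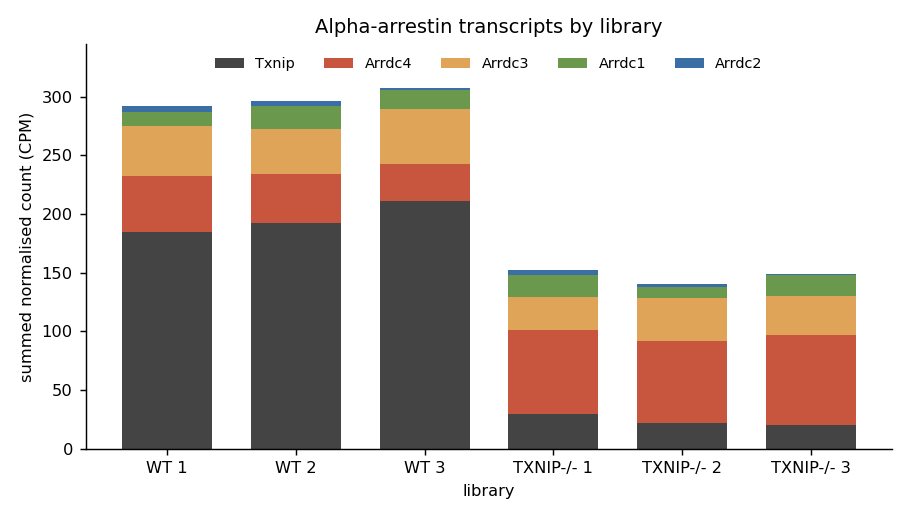
Stacked levels (CPM, vertical axis) of the 5 detected alpha-arrestin genes in each of the 6 libraries (horizontal axis). The total is 292 to 308 CPM in WT libraries and 140 to 153 CPM in TXNIP-/- libraries, and the largest block changes from *Txnip* to *Arrdc4*.

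Ratios between members within a library do not depend on how libraries are scaled. The ratio of *Arrdc4* to *Arrdc3* was 2.51, 1.92 and 2.29 in TXNIP-/- replicates 1, 2 and 3 and 1.119, 1.11 and 0.688 in WT replicates 1, 2 and 3. The ratio of *Arrdc4* to *Txnip* was 2.36, 3.18 and 3.75 in TXNIP-/- and 0.257, 0.218 and 0.151 in WT replicates 1, 2 and 3. Both ratios were higher in every TXNIP-/- library than in any WT library. For the ratio to *Txnip* this direction was given in advance by the loss of the targeted gene, so it is not a separate result. A ratio of this kind shows unequal change of its members, not which of them changed.

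The promoters of *Txnip* and *Arrdc4* are shown because these are the called members and both are known MondoA targets. They are the 250 bases before the RefSeq start site on GRCm38.p6, written 5′ to 3′ on the strand of the gene, at chr3:96557707-96557956 (plus strand) for *Txnip* and chr7:68749239-68749488 (minus strand) for *Arrdc4*. Capitals mark matches, on either strand, to CACGTG (the E-box), to CACGNG present 2 times with 5 bases between (a pair of E-box-like sites, letters chosen after the sequence was seen, each of which can be the E-box), to ATTGG (the inverted CCAAT box) and to GTAAACA (a forkhead motif).
Txnip: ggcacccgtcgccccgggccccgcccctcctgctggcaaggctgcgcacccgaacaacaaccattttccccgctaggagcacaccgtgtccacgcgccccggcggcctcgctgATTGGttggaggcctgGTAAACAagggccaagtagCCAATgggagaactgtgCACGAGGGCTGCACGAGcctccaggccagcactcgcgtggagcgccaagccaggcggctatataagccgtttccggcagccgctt
Arrdc4: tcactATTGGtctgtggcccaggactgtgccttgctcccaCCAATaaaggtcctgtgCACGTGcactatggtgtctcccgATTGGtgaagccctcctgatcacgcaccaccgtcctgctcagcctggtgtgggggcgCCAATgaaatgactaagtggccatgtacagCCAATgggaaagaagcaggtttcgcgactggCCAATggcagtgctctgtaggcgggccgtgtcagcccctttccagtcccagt

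The *Txnip* promoter held 1 pair of E-box-like sites, with its first base at -85 (-1 is the base before the start site), 1 forkhead match at -121 and 2 inverted CCAAT boxes at -137 and -102. The *Arrdc4* promoter held 1 E-box at -193 and 6 inverted CCAAT boxes. Among 32817 RefSeq promoter windows, which also include the first 50 transcribed bases, the pair was present in 16 (0.0488%), the E-box in 7.15%, the forkhead letters in 3.65% and the inverted CCAAT box in 37.4%. Neither the E-box, the pair nor the forkhead letters matched in the windows of *Arrdc1*, *Arrdc2*, *Arrdc3* or *Arrdc5*. The inverted CCAAT box also matched in windows of *Arrdc2*, *Arrdc3* and *Arrdc5*, but not in that of *Arrdc1*. Of the letters searched, only this box was present in both the *Txnip* and the *Arrdc4* promoter. These matches describe the letters in these windows and not binding.

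No gene was called in a list built around MondoA and ChREBP, which also holds other transcription factor genes. MondoA (*Mlxip*) and its partner *Mlx* had log2 fold changes of -0.13 and -0.02, and ChREBP (*Mlxipl*) had at most 3 counts in any library. Of 7 genes in this list, 6 were tested and 0 were called by edgeR, DESeq2 or limma, none with an unadjusted p under 0.05 in edgeR, and the median log2 fold change was -0.08 beside a median of -2.75e-05 over all tested genes. Its 2 most abundant members, the E-box factor genes *Max* and *Mxd4*, had log2 fold changes of 0.01 and -0.23 (adjusted p = 0.983 and 0.546, edgeR).

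Among 8 genes of the thioredoxin system and other partners of TXNIP, 6 were tested, 1 was called higher and 0 lower (1.55% of all tested genes were called), with a median log2 fold change of 0.01. *Txnrd1*, the cytosolic thioredoxin reductase that recharges thioredoxin, had 4467, 5025 and 4657 counts in TXNIP-/- replicates 1, 2 and 3 and 4018, 4007 and 3839 counts in WT replicates 1, 2 and 3. It rose from 393 ± 12.3 to 503 ± 8.03 CPM without overlap between genotypes (log2 fold change 0.36 with a standard error of 0.08, adjusted p = 0.0243, edgeR), a 1.28-fold change. The call of *Txnrd1* was lost when any 1 library other than WT replicate 3 was left out (adjusted p 0.104 to 0.163), with library totals as the only scaling (adjusted p = 0.117) and with the term for WT replicates 1 and 2 (adjusted p = 0.0862, edgeR). Its log2 fold change stayed between 0.34 and 0.38 with a library left out and was 0.31 with the term. The kinase gene *Map3k5*, known as ASK1 and bound by thioredoxin, was below the filter and chosen after its values were seen, with 0, 2 and 1 counts in TXNIP-/- and 19, 10 and 14 counts in WT replicates 1, 2 and 3, without overlap. *Txn1*, the cytosolic thioredoxin that TXNIP binds, had 526 CPM in TXNIP-/- and 507 CPM in WT libraries, a log2 fold change of 0.05 (adjusted p = 0.889, edgeR).

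Of 9 NEDD4-family ubiquitin ligases, through which alpha-arrestins act, 8 were tested and 0 called by edgeR, DESeq2 or limma. Their median log2 fold change was 0.14, with 6 higher and 2 lower. An unadjusted p under 0.05 in edgeR was reached by 2 of them, beside 11.5% of all tested genes. *Nedd4*, the most abundant of them, had 485 CPM in TXNIP-/- and 525 CPM in WT libraries, a log2 fold change of -0.11 (adjusted p = 0.667, edgeR), and *Smurf2* had 160 and 146 CPM (log2 fold change 0.14, adjusted p = 0.655, edgeR). The 7 genes of ARRDC1-driven vesicle budding were all tested and 0 were called by any of these tools or reached an unadjusted p under 0.05 in edgeR, with *Chmp4b* and *Pdcd6ip* at log2 fold changes of -0.06 and 0.04. Of 8 other genes with an arrestin fold, 7 were tested and 0 were called by edgeR or limma. The most abundant, *Vps26a* and *Vps26b* of the retromer, had log2 fold changes of -0.09 and 0.02. DESeq2 called 1 of them, the beta-arrestin gene *Arrb1*, which was chosen after its values were seen. *Arrb1* had 39.1 ± 4.82 CPM in TXNIP-/- and 57.1 ± 3.98 CPM in WT libraries, a log2 fold change of -0.55 (adjusted p = 0.0549 in edgeR and 0.0187 in DESeq2), without overlap between genotypes.

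Of 8 membrane proteins known as cargo of alpha-arrestins, 5 were tested and 0 called by edgeR, DESeq2 or limma. An unadjusted p under 0.05 in edgeR was reached by 2 of them, beside 11.5% of all tested genes. The insulin-like growth factor receptor gene *Igf1r* had 231 ± 18.9 CPM in TXNIP-/- and 288 ± 31.0 CPM in WT libraries, a log2 fold change of -0.32 (adjusted p = 0.145, edgeR). *Igf1r* passed without a filter on low counts (adjusted p = 0.0352) and without WT replicate 3 (adjusted p = 0.0203), but its log2 fold change was -0.19 (adjusted p = 0.482) with the term for WT replicates 1 and 2 and -0.23 (adjusted p = 0.630) without WT replicate 2. *Notch1* had a log2 fold change of -0.03. The glucose transporter gene *Slc2a1*, which encodes GLUT1, had a log2 fold change of -0.05 (adjusted p = 0.952, edgeR), with a 95% interval of 0.754-fold to 1.24-fold. Of 8 glucocorticoid-response genes, all were tested and 0 called by these tools, with 3 at an unadjusted p under 0.05 in edgeR (11.5% of all tested genes) and a median log2 fold change of -0.13. In this list 6 genes were lower and 2 higher, with log2 fold changes from -0.46 to 0.05, and the 3 with an unadjusted p under 0.05 were all lower. *Klf9* and *Sgk1*, the most abundant, had log2 fold changes of 0.05 and -0.14. Of 9 genes of FoxO and energy-stress signalling, 8 were tested, 0 were called higher and 1 lower (0.976% of all tested genes were called lower). Their median log2 fold change was -0.14, with 3 higher and 5 lower. An unadjusted p under 0.05 in edgeR was reached by 3 of them, beside 11.5% of all tested genes. *Klf15*, a transcription factor gene of fasting metabolism, fell from 8.09 ± 2.38 CPM in WT to 2.29 ± 0.59 CPM in TXNIP-/- libraries, a log2 fold change of -1.81 with a standard error of 0.41 (adjusted p = 0.0307, edgeR). *Klf15* had 15, 28 and 22 counts in TXNIP-/- and 65, 75 and 102 counts in WT replicates 1, 2 and 3, and its call was lost whichever library was left out (adjusted p 0.0595 to 0.125), while its log2 fold change stayed between -1.99 and -1.55. With the term for WT replicates 1 and 2 its log2 fold change was -2.22 (adjusted p = 0.0248, edgeR). *Foxo1* and *Prkaa1* had log2 fold changes of -0.21 and -0.07.

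**Figure D4:**
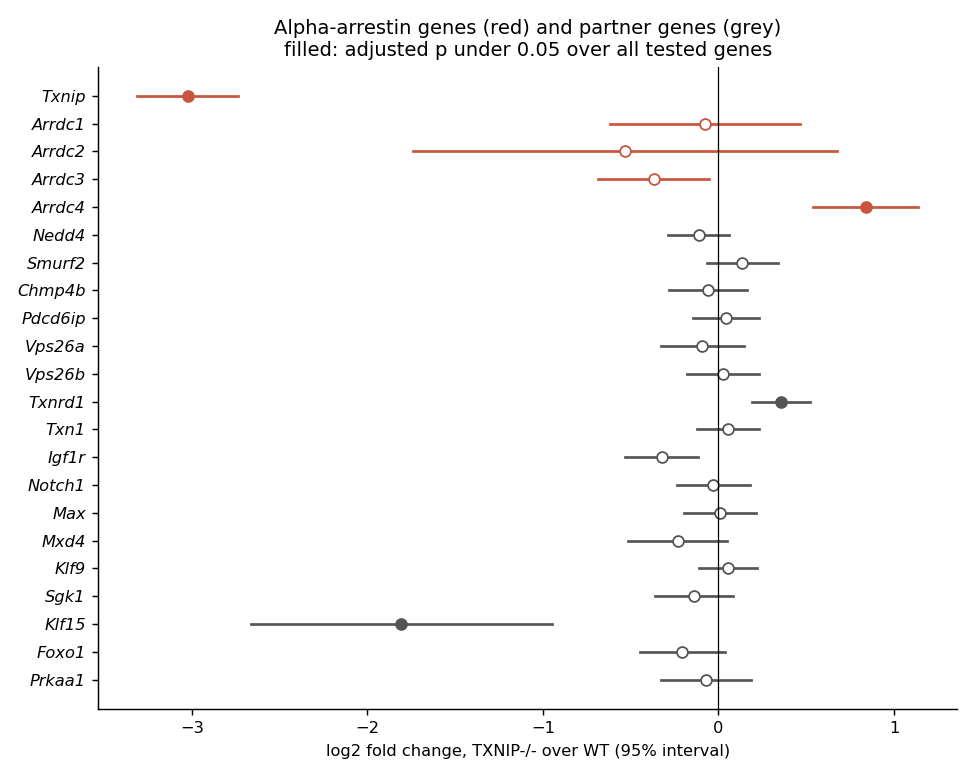
Log2 fold change of TXNIP-/- over WT LSECs (horizontal axis) with its 95% interval for the 5 tested alpha-arrestin genes (red) and the partner genes named by rule (grey, without *Arrb1*), listed on the vertical axis, with filled points where the adjusted p was under 0.05. *Txnip* (-3.02) and *Arrdc4* (0.84) stand apart from 0, as do *Txnrd1* (0.36) and *Klf15* (-1.81), while of the other intervals plotted only those of *Arrdc3* and *Igf1r* leave out 0.

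The genes whose levels across the 6 libraries were most like those of *Txnip* were sought among 8024 other tested genes of at least 10 CPM, by the root mean square difference of mean-centred log2 CPM. They were *Pla2g7* (0.50), *Fyb* (0.51), *Cd163* (0.52), *Clec7a* (0.60) and *Saa3* (0.63). *Cd163*, *Clec7a*, *Fyb* and *Pla2g7* are known from macrophages or other blood cells, and *Cd163* is 1 of the Kupffer cell markers given above. The log2 fold change of these 5 genes lay between -2.33 (*Fyb*) and -1.89 (*Saa3*), so none fell as far as *Txnip*. Those most like *Arrdc4* were *Trmt61a* (0.09), *Urb1* (0.11), *Cdh2* (0.11), *Neurl3* (0.13) and *Cd44* (0.13), with log2 fold changes from 0.66 (*Neurl3*) to 0.84 (*Cd44*). Of these, *Cdh2* encodes N-cadherin and *Cd44* a hyaluronan receptor. *Trmt61a*, *Neurl3* and *Cd44* passed an adjusted p of 0.05 in edgeR, where 0.57% of all tested genes were called higher. The genes like *Txnip* and those like *Arrdc4* were picked by their levels in these same libraries. Their fold changes and calls therefore follow from the choice and are not separate results.

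**Figure D5:**
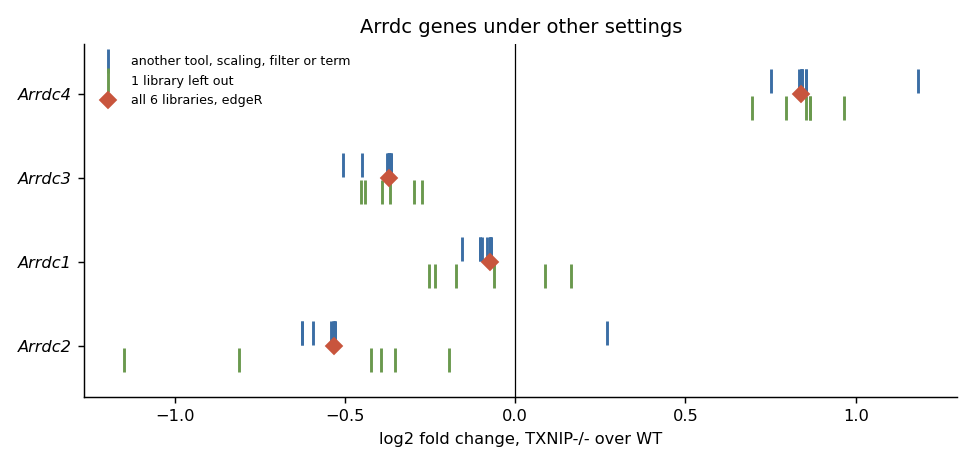
Log2 fold change of TXNIP-/- over WT LSECs (horizontal axis) of *Arrdc4*, *Arrdc3*, *Arrdc1* and *Arrdc2* with all 6 libraries (red diamond), under another tool, scaling, filter or term (blue ticks) and with 1 library left out (green ticks). *Arrdc4* stays between 0.70 and 1.18 and *Arrdc3* between -0.50 and -0.27, while *Arrdc1* and *Arrdc2* appear on both sides of 0.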

How the data were processed

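LSEC libraries were made by the authors with the QuantSeq 3′ mRNA-Seq kit and sequenced as single-end reads. Alignment by the authors used Bowtie2, and their gene counts from Bedtools include reads with several alignments. The submitters' processing notes name the build mm10, while versions, annotation and use of strand are not given in the sources used here. The deposited values are whole-number counts per gene symbol, without normalization, in 23282 rows per file (44 repeat a symbol). Library totals of 9147764 to 10193952 make 3 counts, the floor used, 0.294 to 0.328 CPM. No molecular identifiers are named, so floors cover counting error only.

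Genotypes were compared with edgeR 4.0.16 (R 4.3.3), which used filterByExpr, TMM factors, glmQLFit and glmQLFTest on all 6 libraries, with genotype as the only term and Benjamini-Hochberg adjustment over 11583 genes. CPM are counts scaled with these factors, and 95% intervals were derived from the standard error and are approximate. DESeq2 1.42.0, limma 3.58.1 (limma-trend, prior count 2), other scalings and filters, the replicate block, a term for WT replicates 1 and 2 and each library left out were alternatives. Gene positions come from GENCODE M21 (GRCm38) and promoters from RefSeq (GRCm38.p6). All 6 members matched a RefSeq promoter, and no protein sequence is shown.

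The members, partner lists and alternatives were chosen with earlier results of these data known. Genes named were the members, and from each list those called and the 2 most abundant. Also named were the 5 genes most like *Txnip* and any called *Arrdc* gene, other genes overlapping the 3′ end of a member and the nearest tested gene on each side of *Txnip*. *Mlxip*, *Mlx*, *Mlxipl*, *Slc2a1*, *Arrb1*, *Map3k5*, *Lyve1*, *Gm15441*, *Pecam1* and *Cdh5* were named outside this rule, after their values were seen. The study gives n = 3 with the mice of each genotype but does not say that each library is a separate mouse, so p-values may measure technical spread. WT replicates 1 and 2 gave a chi-square of 3.93 for each degree of freedom, above sampling noise, and were kept as 2 replicates.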

Additional observations from a re-analysis of the deposited data

How the results depend on the processing

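Over 16 alternatives each, *Txnip* stayed lower and *Arrdc4* higher with an adjusted p under 0.05, and *Arrdc3* stayed lower without passing. Leaving out 1 library at a time, the log2 fold change ran from -3.21 to -2.92 for *Txnip*, from 0.70 to 0.97 for *Arrdc4*, from -0.45 to -0.27 for *Arrdc3*, from -1.15 to -0.20 for *Arrdc2* and from -0.25 to 0.16 for *Arrdc1*. *Arrdc2* turned to 0.27 with the term for WT replicates 1 and 2. Of the *Arrdc* genes 1 was called, and 2 with an unadjusted p under 0.05. Over all tested genes, 179 were called, 302 by DESeq2 and 346 without a filter, which tested 16763 genes, and 89 (without WT replicate 1) to 367 (without WT replicate 3) with a library left out. The cause was not tested.

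Same-numbered libraries did not deviate together (correlations of -0.03, 0.02 and -0.05). Such correlations, from 3 libraries per genotype, cannot show whether libraries of the same number were prepared together. With the replicate block 108 genes were called, *Txnip* had a log2 fold change of -3.03 and *Arrdc4* of 0.85 (adjusted p = 0.00991, edgeR), and *Txnrd1* (adjusted p = 0.109) and *Klf15* (adjusted p = 0.0701) lost their calls at log2 fold changes of 0.36 and -1.80.

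Partner genes with a log2 fold change near 0 turned direction, and the cause was not tested. With library totals as the only scaling, values were -0.027 for *Klf9*, -0.073 for *Max*, -0.039 for *Pdcd6ip*, -0.033 for *Txn1* and -0.057 for *Vps26b*. With the term for WT replicates 1 and 2, values were 0.015 for *Nedd4* and -0.031 for *Vps26b*. With 1 library left out, they ran from -0.196 to 0.018 for *Chmp4b*, -0.043 to 0.070 for *Max*, -0.091 to 0.012 for *Notch1*, -0.019 to 0.101 for *Txn1* and -0.016 to 0.071 for *Vps26b*. Depth limits *Arrdc2* (11 to 47 counts) and *Arrdc5* (0 counts) most.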
